A study of Homo sapiens with 5 samples.

Results

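The linker histone H1 genes were followed on 5 microarrays of KM-H2, an established Hodgkin lymphoma cell line of B cell origin. Culture lasted 16 hours in the presence of 30 uM LY294002 (2 arrays) or of DMSO, the solvent control (3 arrays). LY294002 is a morpholine-containing inhibitor of phosphoinositide 3-kinase that also binds mTOR and BET bromodomain proteins. The submitters planned triplicates in both groups and left out 1 array because of high background. The genes were found by name: all probe sets with 1 gene symbol that starts with H1- were taken, which gave 7 probe sets of 7 genes (H1-1, H1-2, H1-3, H1-4, H1-5, H1-6 and H1-10) among the 8746 non-control probe sets (7713 genes with 1 symbol) of the table. The family itself was selected on the LY294002 minus DMSO differences of H1-2 and H1-10, so these differences are given as descriptions without a test.

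Linker histones bind the DNA where it enters and leaves the nucleosome and help to fold chromatin. Most human subtypes are encoded in the large histone gene cluster on chromosome 6, are transcribed mainly in S phase and give mRNAs that end in a stem-loop in place of a poly(A) tail. H1-1 to H1-5 are the somatic subtypes of this cluster and H1-6 is the testis-specific one. H1-10, also called H1x, lies alone on chromosome 3, is expressed through the cell cycle and has a polyadenylated mRNA. Polyadenylated forms of some cluster mRNAs, H1-2 among them, are known from cells that have left the cycle. Standard Affymetrix labelling starts from the poly(A) tail, so a value here reads mainly polyadenylated RNA; the part this has in any difference between members was not tested.

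The promoters of H1-2 and H1-10 are shown because these genes differed between the groups, and that of H1-4 because it comes from the same cluster as H1-2 and was near 0 in its difference. Each is the 250 bases before the start site from RefSeq's GRCh38.p14, written 5′ to 3′ on the gene's strand, with matches to the motifs searched in capitals. The H1-2 window lies at chr6:26056471-26056720 on the minus strand, the H1-4 window at chr6:26156079-26156328 on the plus strand and the H1-10 window at chr3:129316287-129316536 on the minus strand.
H1-2 promoter: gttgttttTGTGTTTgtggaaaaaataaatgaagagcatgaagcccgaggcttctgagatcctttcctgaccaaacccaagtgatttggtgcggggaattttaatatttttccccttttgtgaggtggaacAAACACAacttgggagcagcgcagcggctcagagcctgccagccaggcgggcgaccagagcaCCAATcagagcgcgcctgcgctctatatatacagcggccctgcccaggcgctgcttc
H1-4 promoter: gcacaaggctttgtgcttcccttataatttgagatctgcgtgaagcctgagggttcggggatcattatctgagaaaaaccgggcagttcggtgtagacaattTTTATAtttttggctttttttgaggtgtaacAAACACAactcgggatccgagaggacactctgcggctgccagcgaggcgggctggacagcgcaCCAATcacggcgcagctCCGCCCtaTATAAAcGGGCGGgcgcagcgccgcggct
H1-10 promoter: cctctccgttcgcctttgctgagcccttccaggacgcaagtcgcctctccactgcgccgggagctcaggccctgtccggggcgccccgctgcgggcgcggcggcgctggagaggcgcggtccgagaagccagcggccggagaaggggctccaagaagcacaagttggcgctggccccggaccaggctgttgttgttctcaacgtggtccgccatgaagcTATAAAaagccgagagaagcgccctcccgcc
The motifs, searched on both strands from 250 bases before to 50 after the start site, were the H1 box of linker histone promoters (AAACACA), the CCAAT box (CCAAT), the TATA box (TATAAA), the GC box (GGGCGG), a FOXO-type site (TGTTTAC) and the E-box (CACGTG). No 2 of these motifs contain one another. All 7 members had a window. The H1 box was found in 6 of 7, every one of them except H1-10, against 5.64% of all 35116 windows. CCAAT was found in the same 6, against 34.6% of all windows. In H1-2, H1-3, H1-4, H1-5 and H1-6 an H1 box on the gene's strand began between 105 and 119 bases before the start site, and in H1-1 the match lay on the opposite strand, 183 to 177 bases before it. H1-2 held a further H1 box on the opposite strand at 242 to 236 bases before the start site, and H1-5 one on its own strand at 226 to 220. TATAAA was found in H1-1, H1-3, H1-4 and H1-10 (11.5% of all windows) and GGGCGG in H1-1, H1-4, H1-5 and H1-6 (45.0%). Only exact matches were counted, so near matches, such as the tatatata stretch toward the end of the H1-2 window, were left out. TGTTTAC (3.42% of all windows) and CACGTG (7.26%) were found in 0 of 7. The 6 genes with the H1 box thus include H1-2 and the 5 members whose groups overlapped, while H1-10 had only TATAAA among these motifs.

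The arrays were alike in their overall values, with medians of 6.26 and 6.29 on the LY294002 arrays and 6.27 on each DMSO array on the log2 scale. For ACTB, whose 3′ and 5′ control probe sets show how intact the RNA was, the 3′ minus 5′ difference was -0.72 and -0.86 on the LY294002 arrays, within the range of the DMSO arrays (-0.96 to -0.71). For GAPDH it was -0.086 and -0.19 on the LY294002 arrays, against -0.26 to -0.12 on the DMSO arrays, so that LY294002 replicate 1 lay just above that range; the part of RNA quality in the differences was not tested. Of 10 Hodgkin cell markers, 9 lay above the array median on all arrays, among them TNFRSF8 (CD30) and CD40, while 0 of 2 measured myeloid, 0 of 3 fibroblast and 0 of 3 epithelial markers did. All 4 T cell markers also lay above the median on all arrays. Of the 5 measured B cell markers MS4A1 and CD22 did, whereas CD79A, CD79B and POU2AF1 did not. The Hodgkin marker that did not, CCL17, lay above the median only on DMSO replicates 2 and 3. The fibroblast marker COL1A1 lay above it on all arrays except LY294002 replicate 2, and COL1A2 on DMSO replicate 3 alone. No label says that replicates were separate cultures, so errors and p-values cover array to array spread, possibly of technical origin alone.

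H1-2, a somatic subtype of the chromosome 6 cluster (probe set 209398_at), was higher with LY294002. Its log2 values were 8.52 and 8.92 on LY294002 replicates 1 and 2, against 6.47, 6.19 and 6.65 on DMSO replicates 1, 2 and 3. The groups did not overlap: the lowest LY294002 array lay 1.87 log2 units above the highest DMSO array. The mean was 8.72 ± 0.28 (SD, n = 2) with LY294002 and 6.44 ± 0.23 (SD, n = 3) with DMSO. The difference was 2.28 ± 0.19 on the log2 scale (limma standard error), or 4.87-fold with a 95% interval of 3.44 to 6.89, and its place was 1 among the 8746 probe sets ordered from the highest difference. H1-2 was also among the more variable probe sets within each group. Its SD over the DMSO arrays was higher than or equal to that of 98.0% of all probe sets, and its SD over the LY294002 arrays than that of 98.2%.

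H1-10, the replication-independent subtype (probe set 204805_s_at), was higher as well. It measured 10.93 and 10.76 on LY294002 replicates 1 and 2, against 8.91, 9.01 and 9.27 on DMSO replicates 1, 2 and 3. The groups again lay apart, by 1.49 log2 units between the lowest LY294002 and the highest DMSO array. The mean was 10.84 ± 0.12 (SD, n = 2) with LY294002 and 9.06 ± 0.18 (SD, n = 3) with DMSO. The log2 difference was 1.78 ± 0.13 (limma standard error), or 3.43-fold with a 95% interval of 2.72 to 4.33, and its place was 6 among the 8746 probe sets. The ending of the probe set's name marks it as one that can bind more than 1 transcript, and its value is uncertain to that extent. H1-2 and H1-10 were the 2 of 7 members whose LY294002 arrays both lay above all DMSO arrays; the share of all 7713 genes in that position was 16.2%, and since the family was picked on this contrast nothing is read from the count.

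**Figure D1:**
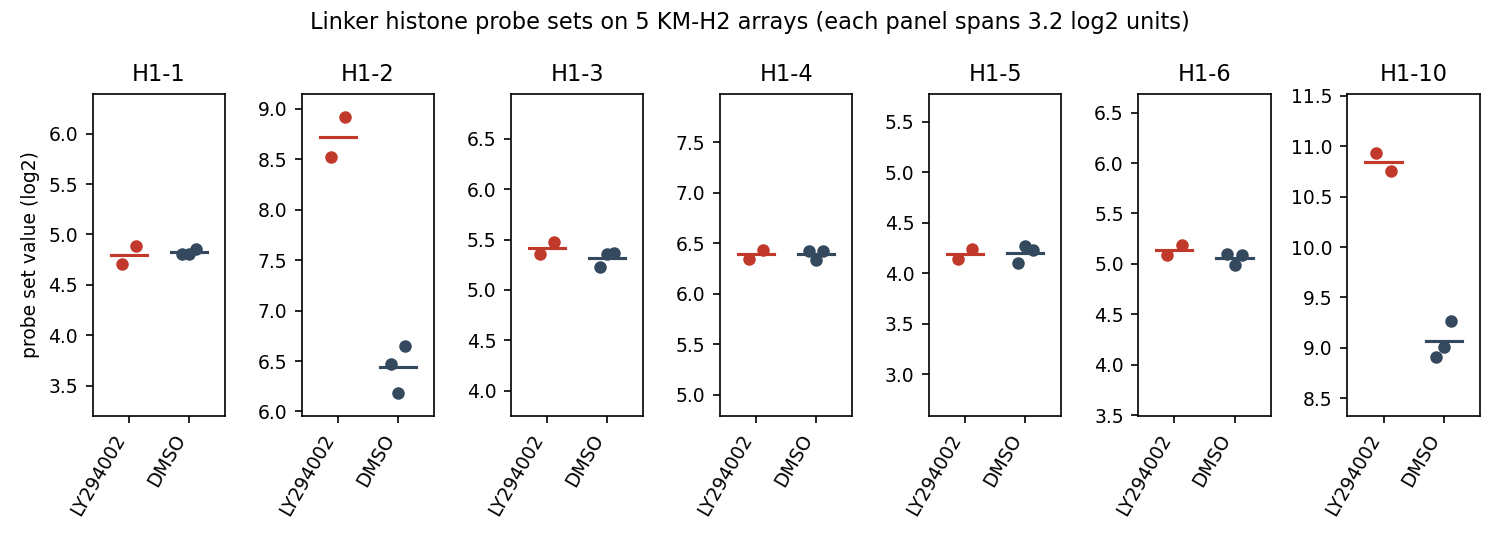
Log2 probe set value of each linker histone gene on the 2 LY294002 arrays (red, left) and the 3 DMSO arrays (dark, right), with horizontal lines at the group means; all panels span the same number of log2 units, and levels are not compared between panels. H1-2 and H1-10 show separated groups, 2.28 and 1.78 apart in their means, and the groups of the other 5 genes overlap.

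The difference of H1-2 and that of H1-10 were not of one size on every array. Relative to its DMSO mean, H1-2 stood at 2.08 on LY294002 replicate 1 and 2.48 on LY294002 replicate 2. For H1-10 these values were 1.87 on LY294002 replicate 1 and 1.69 on LY294002 replicate 2, so that H1-2 was higher on replicate 2 and H1-10 on replicate 1. The log2 value of H1-2 minus that of H1-10 on the same array, taken relative to its DMSO mean, was 0.22 and 0.79 on LY294002 replicates 1 and 2, against 0.19, -0.20 and 0.012 on DMSO replicates 1, 2 and 3. LY294002 replicate 1 thus lay close to DMSO replicate 1 in this quantity, and the mean shift of 0.50 came mostly from LY294002 replicate 2. Both genes were highest on replicate 3 among the DMSO arrays, while the lowest DMSO array was replicate 2 for H1-2 and replicate 1 for H1-10.

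The other 5 members, all of the chromosome 6 cluster, had overlapping groups and log2 differences between -0.025 and 0.097, with standard errors of 0.050 to 0.067. H1-3, a somatic subtype, had the highest of these differences, 0.097 (95% interval -0.077 to 0.27). Its values were 5.36 and 5.47 on the LY294002 arrays, against 5.23, 5.36 and 5.37 on the DMSO arrays. H1-6, the testis subtype, measured 5.08 and 5.19 on the LY294002 arrays, against 5.10, 4.99 and 5.08 on the DMSO arrays, a difference of 0.079 (-0.068 to 0.22). In both genes LY294002 replicate 2 was the highest array and LY294002 replicate 1 lay within the DMSO range.

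H1-4, one of the most abundant somatic subtypes in many human cells, was at 6.34 and 6.44 on the LY294002 arrays, against 6.42, 6.33 and 6.42 on the DMSO arrays. Its difference was -0.0052 with a 95% interval of -0.14 to 0.13, the narrowest of the 7. H1-5 measured 4.14 and 4.24 on the LY294002 arrays, against 4.10, 4.27 and 4.23 on the DMSO arrays, a difference of -0.011 (-0.19 to 0.17). H1-1 measured 4.71 and 4.89 on the LY294002 arrays, against 4.81, 4.81 and 4.85 on the DMSO arrays. The LY294002 arrays lay on either side of the DMSO range in H1-1, and the difference was -0.025 (-0.19 to 0.14). Over these 5 genes the intervals leave differences outside -0.19 to 0.27 uncovered, which is far from the differences of H1-2 and H1-10.

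The position of these probe sets on the arrays bears on what they can show. The 40% dimmest probe sets, by the mean over all arrays, held H1-1, H1-3, H1-5 and H1-6, and the 3 members above that line were H1-2, H1-4 and H1-10. H1-5 lay in the lowest 4.18% of probe sets on every array, where a fall can hardly be measured, and H1-4 between the 51.2 and 53.1 percentile. On the DMSO arrays H1-2 lay between the 48.2 and 57.7 percentile, in the same part of the range as H1-4, and on the LY294002 arrays at 85.6 and 90.7. These are positions among probe sets and not amounts of RNA, because probe sets differ in how brightly they bind. Identical values occurred on 2 arrays in H1-3, H1-4 and H1-6, and on at least 2 arrays in 56.5% of all probe sets. In H1-4 the tie was between DMSO replicates 1 and 3, while in H1-3 and H1-6 it was between LY294002 replicate 1 and a DMSO array.

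**Figure D2:**
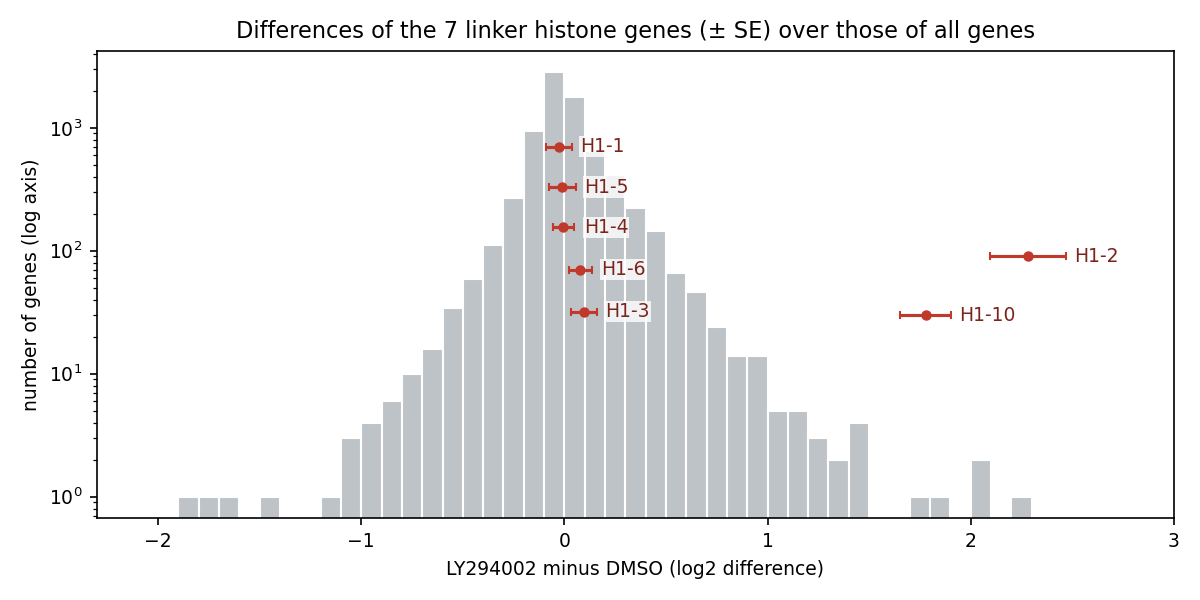
LY294002 minus DMSO log2 difference of each linker histone gene (red points, bars are limma standard errors, n = 2 and 3 arrays; the height of the points has no meaning) over a histogram of the differences of all 7713 genes (grey, log count axis). H1-10 and H1-2 lie at 1.78 and 2.28 at the right end, and the other 5 lie between -0.025 and 0.097 in the bulk of the histogram.

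H1-2 stands within the chromosome 6 cluster among genes that did not all do the same. Of 31 core histone genes measured on chromosome 6, 3 were called higher by limma at an adjusted p of 0.05, where 0.609% of all genes were. They were H2AC6 and H2BC5, which encode histones H2A and H2B, and H2BC6, another H2B gene. The H2B genes H2BC12 (1.32 ± 0.18, limma adjusted p = 0.0645) and H2BC9 (0.71 ± 0.080, limma adjusted p = 0.0504) did not pass. In both, the LY294002 arrays lay above all DMSO arrays, as in 16.2% of all genes. The H2BC9 probe set is of the kind whose probes can match related genes. Without any 1 array other than DMSO replicate 1, 0 core histone genes passed. In genome order the measured genes around H1-2 run H3C3, H1-2, H1-6, H2AC6, H1-4, H2BC5 and H2BC6. H1-6 and H1-4 are therefore measured neighbours of genes with log2 differences of 2.28 (H1-2), 2.05 (H2AC6) and 2.08 (H2BC5), while their own were 0.079 and -0.0052. H3C3, the measured gene on the other side of H1-2, was at -0.14 ± 0.064 and did not pass. Farther along, the measured genes directly next to H1-3 (0.097) and to H1-5 (-0.011) were close to 0. H2BC9 and H2BC12 lie between H1-3 and H1-5. The probe sets of H2AC6, H2BC5 and H2BC6 are of the kinds that can bind several near-identical histone mRNAs, whereas those of the 6 linker histone genes here are not marked so; binding across linker histone mRNAs was not tested.

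**Figure D3:**
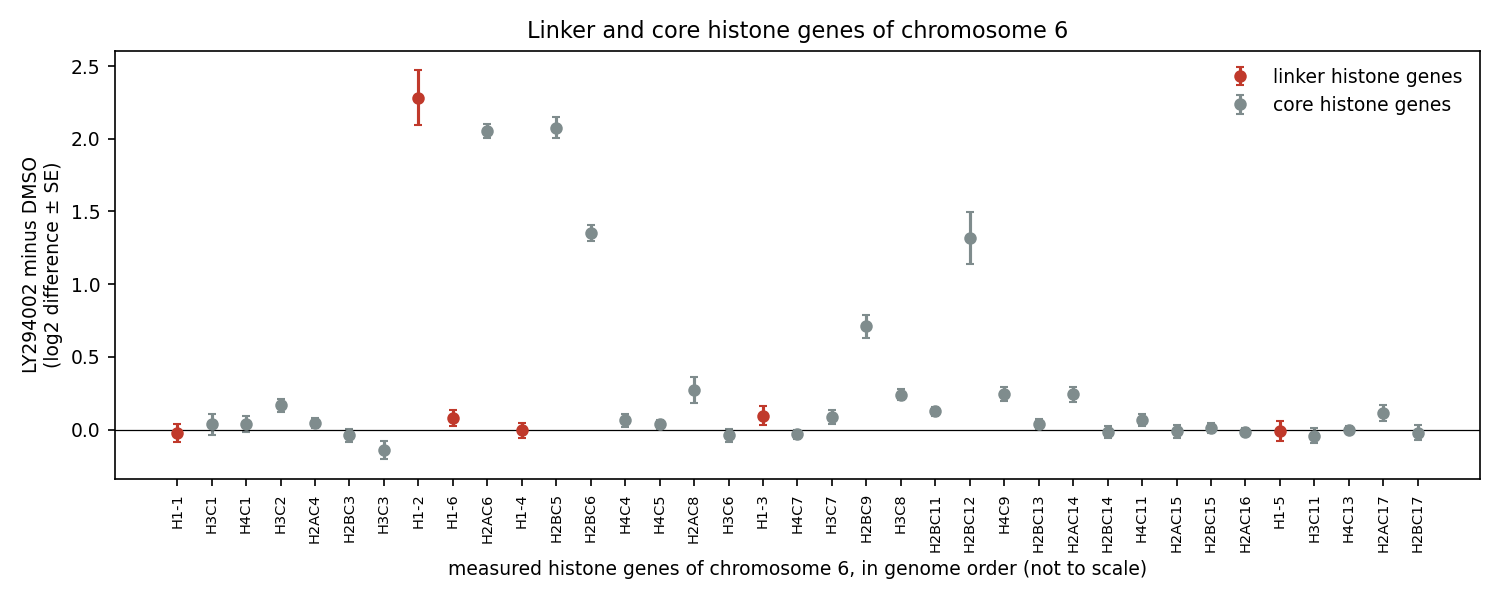
LY294002 minus DMSO log2 difference (points) with limma standard errors (bars, n = 2 and 3 arrays) of the measured histone genes of chromosome 6 in genome order, not to scale, linker histone genes in red and core histone genes in grey. H1-2 at 2.28 stands beside H1-6 at 0.079 and close to H2AC6 at 2.05 and H2BC5 at 2.08, and H1-4 at -0.0052 lies between those core genes.

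The genes with profiles nearest to H1-2 and H1-10 were found over the 5 arrays, by the root mean square difference between log2 values after each probe set's own mean was taken off. Nearest to both was H2AC6, at a distance of 0.22 log2 units from H1-2 and 0.16 from H1-10, where the median distance of all genes was 1.14 from H1-2 and 0.888 from H1-10. Its values were 8.66 and 8.66 on the LY294002 arrays, against 6.54, 6.60 and 6.67 on the DMSO arrays, a difference of 2.05 ± 0.048. For H1-2 the next were the H2B genes H2BC5 (0.25) and H2BC12L (0.29), then DHRS2, a short-chain dehydrogenase gene (0.46), and HEXIM1, whose protein holds the elongation kinase P-TEFb inactive (0.46). For H1-10 they were RYBP, the gene of a Polycomb complex subunit (0.18), DHRS2 (0.19), HEXIM1 (0.23) and H2BC5 (0.23). The distance between H1-2 and H1-10 themselves was 0.33. H1-10 was thus nearer to H1-2 than DHRS2 and HEXIM1 were, while each of the 5 genes nearest to H1-10 was nearer to it than H1-2 was. These distances mostly reflect the size of the same LY294002 minus DMSO difference, which is what the family was picked on.

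**Figure D4:**
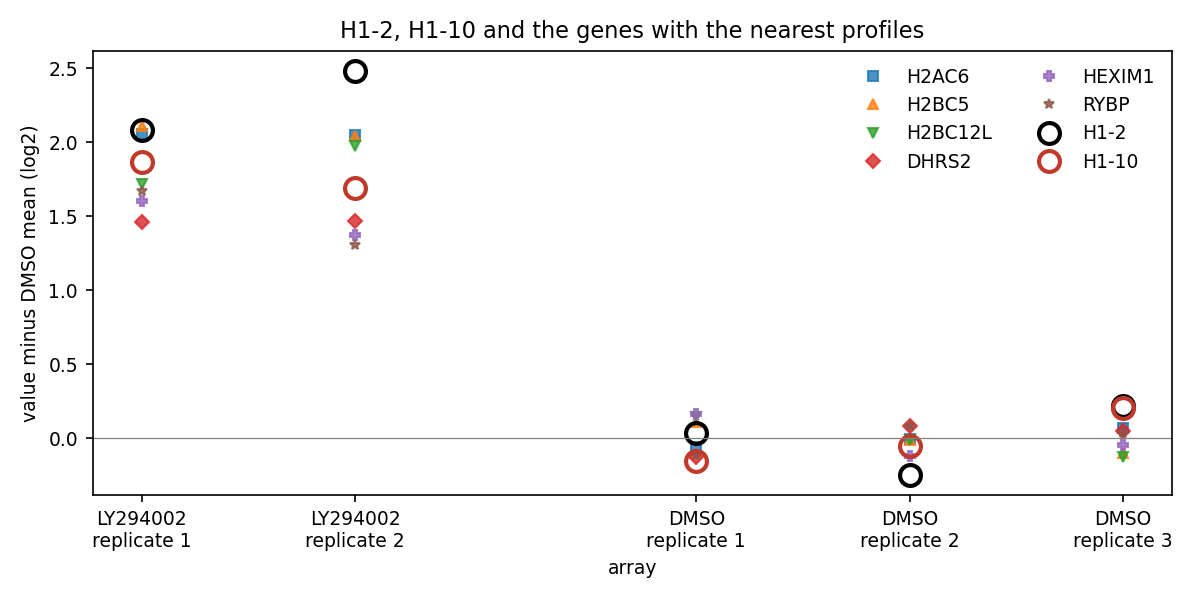
Log2 value minus the DMSO mean of the same gene (vertical axis) on each of the 5 arrays (horizontal axis) for H1-2 and H1-10 (open circles) and the genes with the nearest profiles (filled symbols). H1-2 lies at 2.08 and 2.48 on the LY294002 arrays and H1-10 at 1.87 and 1.69, with all genes near 0 on the DMSO arrays.

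Genes whose products act on or beside linker histones were read from 4 lists, and 0 of their 38 measured genes passed limma at an adjusted p of 0.05, where 0.908% of all genes did. At an unadjusted p under 0.05, 5 of the 38 were higher and 4 lower, beside 10.6% and 6.50% of all genes. Among 7 measured chaperones and binding proteins the median log2 difference was -0.13, against -0.011 over all genes. The largest difference in size was that of NASP, a chaperone that binds H1, at -0.30 ± 0.12 (limma adjusted p = 0.334). NASP measured 7.16 and 7.01 on the LY294002 arrays, against 7.23, 7.58 and 7.33 on the DMSO arrays. Over 9 nucleosome proteins that compete with H1 for binding the median was 0.048. HMGB3, a high mobility group protein, was at 8.22 and 8.18 on the LY294002 arrays, against 7.74, 7.86 and 7.60 on the DMSO arrays, 0.46 ± 0.083 higher (limma adjusted p = 0.0965).

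The 11 measured enzymes and readers of linker histones had a median of 0.023. After quantile normalization 1 of the 11 passed, where 348 of all 8746 probe sets did. SIRT1, a deacetylase that acts on H1-4, had the largest difference of them. It measured 7.09 and 6.90 on the LY294002 arrays, against 6.51, 6.15 and 6.23 on the DMSO arrays, 0.70 ± 0.13 higher (limma adjusted p = 0.102). For 11 genes of histone gene transcription and pre-mRNA 3′ end processing the median was 0.095. The largest difference was in UPF1, a helicase needed for the decay of histone mRNA, with 7.83 and 7.43 on the LY294002 arrays, against 7.27, 7.33 and 7.05 on the DMSO arrays (0.41 ± 0.15, limma adjusted p = 0.29). In NASP the LY294002 arrays lay below all DMSO arrays, as in 13.4% of all genes. In HMGB3, SIRT1 and UPF1 they lay above all DMSO arrays, as in 16.2% of all genes. Each was named for the largest difference of its list, so nothing is read from this separation. None of these differences passed on the deposited values.

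S phase genes, which mark the phase in which the cluster genes are mainly transcribed, are given beside the values of H1-2. The list had been used in earlier work on these arrays and is no independent evidence. All 25 measured genes of the list had log2 differences below 0, as did 55.5% of all genes, and the median was -0.21 against -0.011 over all genes. The LY294002 arrays both lay below all DMSO arrays in 16 of the 25 (13.4% of all genes). At an unadjusted limma p under 0.05, 13 of the 25 were lower and 0 higher, beside 6.50% and 10.6% of all genes. POLE2, a subunit of DNA polymerase epsilon, was the 1 of 25 called lower at an adjusted p of 0.05, against 0.298% of all genes. It measured 7.72 and 7.75 on the LY294002 arrays, against 8.05, 8.11 and 8.12 on the DMSO arrays. The change was -0.36 ± 0.035 (limma adjusted p = 0.0388). The count of 1 became 0 without any 1 DMSO array, with array weights, with the replicate block and with the robust prior. After quantile normalization it was 5 of 25, and without dim probe sets 2 of 24. The mean of the list relative to the DMSO mean was -0.20 and -0.34 on LY294002 replicates 1 and 2, against -0.076, 0.077 and -0.0011 on DMSO replicates 1, 2 and 3. The part that the cell cycle has in the linker histone values was not tested.

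Of 39 core and variant histone genes, which form the nucleosome that H1 binds, 5 were called higher and 0 lower, against 0.609% of all genes called higher. The median over the list was 0.048. All 5 are read by probe sets of the kinds that can bind several near-identical histone mRNAs. The count need not stand for 5 separate genes, which was not tested. H2BC5 measured 9.57 and 9.50 on the LY294002 arrays, against 7.57, 7.45 and 7.36 on the DMSO arrays (2.08 ± 0.073, limma adjusted p = 0.00626). H2BC12L, also an H2B gene, measured 9.08 and 9.33 on the LY294002 arrays, against 7.50, 7.34 and 7.23 on the DMSO arrays (1.84 ± 0.12, limma adjusted p = 0.02). As in the linker histone family, a few genes with log2 differences above 1 stood beside a majority near 0. This list had also been seen in earlier results of these arrays and is no independent evidence. The count was 3 without DMSO replicate 1 and 0 without any other single array, while the differences of H2BC5 (2.03 to 2.13) and H2BC12L (1.72 to 1.97) kept their sign.

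**Figure D5:**
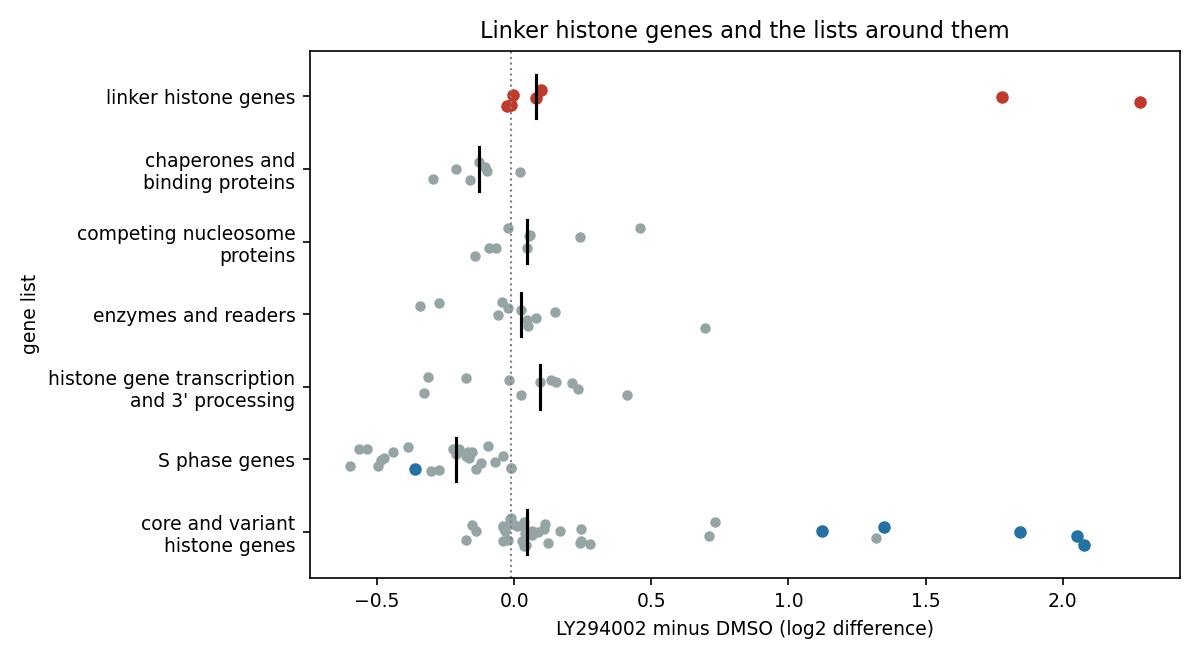
LY294002 minus DMSO log2 difference (horizontal axis) of each gene in the linker histone family (red) and in 6 gene lists (rows), with genes past the limma threshold of the lists in blue and the others in grey; black bars are list medians and the dotted line is the median of all genes. The linker and the core histone genes each show a few genes above 1, the S phase genes lie below 0, and the other lists lie around 0.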

How the data were processed

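The deposited table holds log2 values per probe set, and the submitters' processing notes name affy as the tool with which the authors made them; its version, background correction, summary method and any genome build: not given in the sources used here. Values were used as deposited. Gene names came from the platform annotation: of 8746 non-control probe sets 7840 had 1 symbol, and a gene was represented by its brightest probe set (7713 genes). LY294002 was compared with DMSO by limma 3.58.1 (lmFit and eBayes, R 4.3.3), with a group term alone, two-sided; p-values were adjusted by Benjamini-Hochberg across 8746 probe sets and judged at 0.05. The fit was tested on simulated data (10 tables of 8746 probe sets). It found 87.6% of probe sets changed by 0.5 on the log2 scale and 99.0% of those changed by 1, while 5.25% of all calls were false. The simulated noise was independent and normal with the moderated SD of each real probe set, and held no tied values or array effects. These rates therefore do not carry over to the real arrays, where H2BC12 at 1.32 missed the threshold (limma adjusted p = 0.0645). An uncalled gene is not shown to be unchanged. For arrays, their number limits the precision.

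The members and lists were chosen with earlier results of these data known. Named genes are all members, the 5 genes nearest in profile to H1-2 and to H1-10, and for each list up to 3 members past the threshold with the largest differences or, with none, the member with the largest difference; H2BC6, H2BC9, H2BC12 and H3C3, of the same cluster as H1-2, were named after their values were seen. Alternatives were quantile normalization, median centring, removal of dim probe sets, array weights, a robust prior with an intensity trend, the replicate block, each array left out, and averaging over the probe sets of 1 gene. Promoter windows are RefSeq's (GRCh38.p14). Figures were drawn with matplotlib 3.10.9.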

Additional observations from a re-analysis of the deposited data

How the results depend on the processing

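The differences of H1-2 (2.08 to 2.48) and H1-10 (1.69 to 1.88) moved by less than the spread between arrays in all 12 alternatives. A sign can hardly turn there, because the genes were chosen for differing on these arrays. Without 1 array the same ranges apply. Removal of dim probe sets and the robust prior with an intensity trend cannot change these differences by design. Averaging over probe sets cannot either, because each of these genes had 1 probe set. The replicate block gave the same differences as leaving out DMSO replicate 3. H1-1 changed sign among its alternatives (-0.12 to 0.067), as did H1-4 (-0.053 to 0.043) and H1-5 (-0.061 to 0.037), all uncalled; H1-3 and H1-6 stayed above 0. The number of probe sets past the threshold, 84, was 348 after quantile normalization, 178 after median centring, 240 of 5248 without dim probe sets, 22 with array weights, 0 with the replicate block and 0 to 4 without 1 array. On the lists the count of 6 genes was 15 after quantile normalization, 10 without dim probe sets, 0 with the replicate block and 0 to 3 without 1 array. The named genes H2AC6, H2BC5, H2BC12L, DHRS2, HEXIM1, RYBP and POLE2 kept their sign in all 11 alternatives and missed the threshold in 5 to 8 of them. Fits with 0 calls still had 925 to 2370 probe sets at an unadjusted p under 0.05. With the replicate block H1-2 was at 2.39 and H1-10 at 1.88. Nothing in the labels pairs arrays of one number. Deviations from the group means correlated at 0.0021 (replicate 1) and -0.21 (replicate 2), and at -0.20 to 0.21 between arrays of unlike number. With 2 LY294002 arrays the deviations of one mirror those of the other, so these correlations cannot show whether arrays of one number are paired. Fits without 1 LY294002 array assume that the lone array varies like the DMSO arrays. The causes of these changes were not tested.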
